A study of Mus musculus with 13 samples.

Results

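Imprinted genes are expressed mainly from the maternal or from the paternal chromosome, and the 50 listed here were followed through the ChIP-seq lists of the mouse hepatoma line Hepa 1-6. They were taken by gene symbol, and 49 of the 50 had a gene of that symbol among the 37310 genes of GENCODE M1, the annotation of the mm9 assembly. The remaining one, Kcnq1ot1, was placed by matching its RefSeq promoter sequence to the assembly. The list fell into 19 clusters and holds Zfp57, which is not imprinted here but encodes the protein that keeps imprints. KAP1, H3K9me3, H3K27ac and H3K4me1 were profiled by the study in Hepa 1-6 cells that the labels place in standard culture. The polymerases PolII and PolIII were profiled 5 days after transduction, either with a control vector (control) or with an shRNA against KAP1 (Kap1 KD). The control carried a control shRNA according to the labels and an empty pLKO vector according to the methods, and all cells were of the same line. Each of the 8 lists came from 1 library, so no value below has a replicate error and no difference between conditions could be tested.

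In a mammalian cluster of imprinted genes, 1 stretch of DNA, the imprinting control region, is methylated on the copy inherited from a single parent. ZFP57, a zinc finger protein, binds its methylated motif there and brings KAP1 (gene Trim28), which recruits the methyltransferase SETDB1 that writes H3K9me3, while the other copy can carry active marks and a working promoter. Most control regions are methylated on the maternal copy and lie at the start of a gene expressed from the paternal copy, whereas those of H19-Igf2 and Dlk1-Meg3 lie between genes and are methylated on the paternal copy. The lists do not separate the parental copies, and a region on either copy appears in them in the same way.

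The DNA under the strongest KAP1 peaks is shown first, because the known core of the ZFP57 site, TGCCGC, recurred in it. Below are stretches of 200 bases of mm9 from the KAP1 peak at the control region of 8 genes whose peak had a score of 3100, which 152 peaks share and 8 of the 12470 exceed, and lay at or within 1 kb of a start of the gene, and of the peak between Dlk1 and Meg3. Each is the part of the peak richest in the core, read on the plus strand, with the core or its reverse complement GCGGCA in capitals.
Snrpn (chr7:67149227-67149426): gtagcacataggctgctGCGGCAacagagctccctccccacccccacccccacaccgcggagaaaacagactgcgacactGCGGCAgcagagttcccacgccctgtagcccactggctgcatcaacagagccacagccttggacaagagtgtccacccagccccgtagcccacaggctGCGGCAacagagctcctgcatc
Mest (chr6:30688101-30688300): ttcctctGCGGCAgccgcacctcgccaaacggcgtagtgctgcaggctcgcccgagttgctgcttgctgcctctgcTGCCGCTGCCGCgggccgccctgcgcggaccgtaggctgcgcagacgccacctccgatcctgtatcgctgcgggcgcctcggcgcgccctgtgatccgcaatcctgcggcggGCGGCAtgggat
Plagl1 (chr10:12810867-12811066): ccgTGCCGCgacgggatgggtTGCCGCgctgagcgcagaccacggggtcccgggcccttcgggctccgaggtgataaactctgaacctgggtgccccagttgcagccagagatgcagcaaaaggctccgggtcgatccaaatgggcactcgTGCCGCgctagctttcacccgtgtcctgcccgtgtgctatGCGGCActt
Nnat (chr2:157386004-157386203): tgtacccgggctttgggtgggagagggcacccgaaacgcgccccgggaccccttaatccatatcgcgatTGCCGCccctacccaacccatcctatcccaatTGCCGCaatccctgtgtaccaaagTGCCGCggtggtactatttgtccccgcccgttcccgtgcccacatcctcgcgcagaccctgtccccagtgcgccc
Nap1l5 (chr6:58856827-58857026): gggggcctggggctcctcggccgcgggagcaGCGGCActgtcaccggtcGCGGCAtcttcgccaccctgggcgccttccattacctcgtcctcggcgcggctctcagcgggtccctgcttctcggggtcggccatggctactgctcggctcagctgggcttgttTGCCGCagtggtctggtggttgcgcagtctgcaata
Gnas (chr2:174121328-174121527): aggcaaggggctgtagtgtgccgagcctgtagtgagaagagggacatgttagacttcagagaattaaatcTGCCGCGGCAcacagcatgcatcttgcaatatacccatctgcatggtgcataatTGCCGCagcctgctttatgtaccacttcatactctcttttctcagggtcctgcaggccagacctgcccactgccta
Inpp5f (chr7:135831402-135831601): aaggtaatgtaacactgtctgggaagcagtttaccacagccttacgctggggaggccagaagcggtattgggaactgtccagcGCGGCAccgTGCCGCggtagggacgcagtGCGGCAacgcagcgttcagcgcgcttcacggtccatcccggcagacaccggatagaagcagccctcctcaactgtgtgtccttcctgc
Zrsr1 (chr11:22873252-22873451): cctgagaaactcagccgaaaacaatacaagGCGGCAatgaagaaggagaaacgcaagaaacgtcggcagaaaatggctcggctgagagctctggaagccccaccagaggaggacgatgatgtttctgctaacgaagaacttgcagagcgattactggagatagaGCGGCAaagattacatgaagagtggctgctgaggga
Meg3 (chr12:110766480-110766679): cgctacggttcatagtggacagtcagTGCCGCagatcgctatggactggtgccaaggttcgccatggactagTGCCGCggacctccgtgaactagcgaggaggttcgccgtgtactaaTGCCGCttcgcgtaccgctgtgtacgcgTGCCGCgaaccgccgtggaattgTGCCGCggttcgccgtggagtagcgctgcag
The stretches of Nnat, Mest, Nap1l5 and Zrsr1 are centred in an exon of the gene, those of Snrpn, Plagl1, Gnas and Inpp5f in an intron, and that of Meg3 lies in the intergenic interval 12627 bp before the nearest start of Meg3. Meg3 held 5 cores in its 200 bases, Mest and Plagl1 4 each, and Zrsr1 2.

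The core was found, counting both strands, in each of the 18 KAP1 peaks taken for the control regions, of which that of Airn lies at the Igf2r promoter and not at the Airn start, against 5548 of all 12470 KAP1 peaks (44.5%). Its density was 2.44 per kb in these 18 peaks, 0.553 per kb in all KAP1 peaks and 0.633 in the 4995 that overlap H3K9me3. The same bases in another order, TGCGCC and its reverse complement, came to 0.667 and 0.378 per kb in the 18 and in all peaks. The excess of the control regions was thus larger for the core than for the reordered letters. In the central 300 bp, where the peak width plays no part, 11 of the 18 (61.1%) and 26.0% of all peaks held a core, and so did 55.2% of the 277 other KAP1 peaks in H3K9me3 with a score of at least 1000, so that this measure set the control regions apart from all peaks but hardly from those. The 18 peaks were also richer in CpG than all peaks, with a median ratio of observed to expected CpG of 0.643 against 0.352, and the share of this in the motif count was not tested. Among the control regions the density ran from 5.05 per kb at Snrpn, 4.0 at Mest and 3.62 upstream of Meg3 down to 1.1 at Peg10, 1.02 at the peak assigned to Airn and 0.762 at Zrsr1. Those 277 other peaks held 1.25 per kb.

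**Figure D1:**
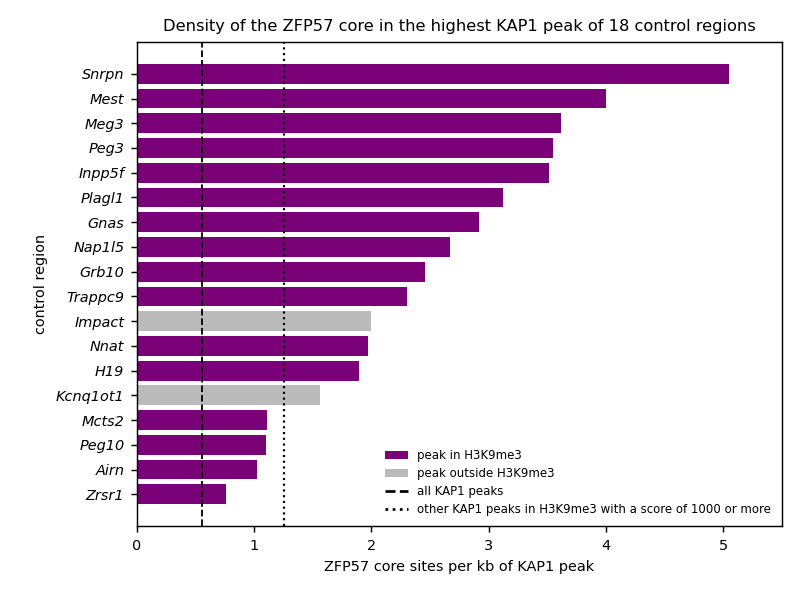
Sites of the ZFP57 core per kb (horizontal axis) in the highest KAP1 peak of each of 18 control regions (bars), with the density in all KAP1 peaks (dashed line, 0.553) and in other strong KAP1 peaks in H3K9me3 (dotted line, 1.25). Every bar passes the dashed line, and Snrpn has the highest with 5.05.

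The region upstream of H19, a non-coding RNA of the maternal copy, is read by CTCF on the unmethylated copy. Its KAP1 peak held 5 matches to GNGGNGGCA, a part of the CTCF core, of which the 3 below are shown because the bases CCGC stand directly before the match. They are given on the strand of H19 (minus), with the matched part in capitals.
H19 upstream (chr7:149766203-149766235): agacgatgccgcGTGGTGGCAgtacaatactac
H19 upstream (chr7:149766658-149766690): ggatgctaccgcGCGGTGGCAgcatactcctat
H19 upstream (chr7:149767928-149767960): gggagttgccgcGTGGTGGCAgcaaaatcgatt
They lie 2167, 2622 and 3892 bp before the H19 start. In 2 of them the match directly follows a ZFP57 core, TGCCGC, so that the 2 motifs stand side by side. The other 2 matches lie 1619 and 1630 bp before the start and touch no core. The density of matches in this peak was 1.57 per kb against 0.261 over all KAP1 peaks, of which 25.3% held a match and 26 (0.209%) held as many. A match is a run of letters and not a measured site.

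KAP1 was high at nearly all control regions. The deposited KAP1 list gives each peak a score, taken here to be that of the peak caller, which was used only to order peaks within the list. Of the 18 control regions, 10 had a peak at 3100, the score that 152 peaks share and 8 exceed. These were the H19 upstream region, Snrpn (a splicing factor gene of the Prader-Willi region), Mest (a hydrolase), Nnat (neuronatin), Plagl1 (a zinc finger growth suppressor), Gnas (the stimulatory G protein alpha subunit), Inpp5f (an inositol phosphatase), Nap1l5, Zrsr1 and the intron of Trappc9. Mcts2 followed with 2691.57, Peg10 (a retrotransposon-derived gene of the placenta) with 2624.93 and Grb10 (an adaptor that restrains growth signalling) with 2300.94. Below these stood Impact with 2088.52, Peg3 (a zinc finger gene) with 1782.43 and the Dlk1-Meg3 interval with 1534.79. These 16 had a score of at least 1000, a limit chosen after the values were seen, which 502 peaks of the list (4.03%) reach. The next 2 were far lower, with 122.57 at Kcnq1ot1 and 89.42 for the only KAP1 peak within 10 kb of Airn.

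H3K9me3 lay on 15 of these 16 strong peaks, against 58.2% of all peaks with such a score. The peaks were 1624 to 4066 bp wide, with a median of 2017.5 bp, where the whole list had a median of 1098 bp. They were chosen by score, and their width was not compared with that of all peaks with such a score. The width is therefore no trait of control regions by itself. The widest H3K9me3 region on each had a median of 3811 bp and reached 9913 bp at Nnat and 8235 bp at Mcts2, but only 326 bp between Dlk1 and Meg3. An active mark overlapped 2 of the 16, namely H3K27ac at Impact and H3K4me1 at Zrsr1. PolII overlapped Nnat, Impact, Zrsr1 and Mcts2 in the control and the last 3 of these under Kap1 KD. Of all KAP1 peaks in H3K9me3, 11.7% overlapped an active mark, 1.94% control PolII and 5.87% Kap1 KD PolII. Over all KAP1 peaks the PolII shares were 16.8% and 28.6%. Most of the 16 peaks thus had H3K9me3 and neither an active mark nor PolII. Even so, PolII was more frequent on them than on all KAP1 peaks in H3K9me3, a difference that was not tested.

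**Figure D2:**
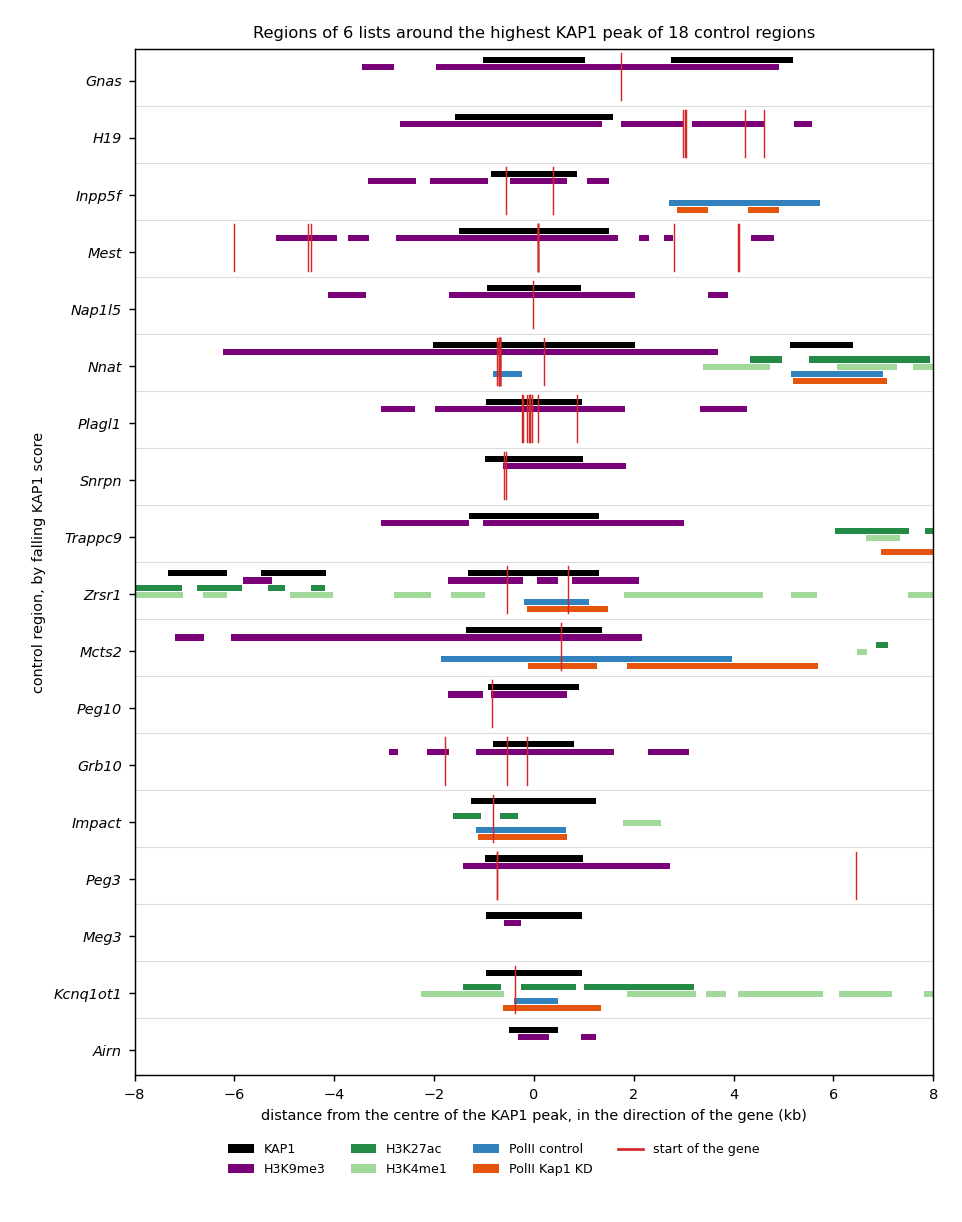
Regions of 6 lists (coloured bars) around the highest KAP1 peak of 18 control regions, as distance in kb from the peak centre in the direction of the gene, ordered by falling KAP1 score, with annotated or sequence-matched starts of the gene as red lines. H3K9me3 bars lie under 16 of the 18 KAP1 peaks, and the exceptions are Impact and Kcnq1ot1.

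Most of these peaks lay at a start of their gene, which the choice of regions favours. Most regions were taken from textbook knowledge as lying at a start, and were searched within the gene and 10 kb around. The share of all KAP1 peaks that cover a start was not counted. Of the 16 strong peaks, 12 covered a start of their gene and 1 more, at Gnas, ended 718 bp before an internal start of the gene. For Snrpn, Mest, Inpp5f and Grb10 the start under the peak was an internal one and not the 5′ end of the gene, so a promoter taken at the 5′ end alone missed them. The H19 peak lay 1409 to 4584 bp before the gene, and the Meg3 peak 11993 bp before it. The Trappc9 peak was 244344 bp from any start of Trappc9, in an intron, where the imprinted non-coding RNA Peg13 is known to lie but has no gene in the annotation used. The second strong peak of Gnas, with a score of 1207.52, lay in an exon and overlapped H3K9me3, and a peak of 193.14 from 43894 to 45567 bp after the 5′ end, among further internal starts, overlapped neither H3K9me3 nor an active mark.

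Impact, Kcnq1ot1 and Airn departed from the common pattern, and each in its own way. Impact, a translation regulator expressed from the paternal copy, had a strong KAP1 peak from 426 bp before to 2077 bp after its start, with H3K27ac, with PolII in both conditions and with no H3K9me3 region within 10 kb. Kcnq1ot1, the non-coding RNA that silences its cluster from the paternal copy, starts at chr7:150482452 on the minus strand in an intron of Kcnq1. Its start carried a KAP1 peak of 122.57, rank 5107 of 12470, with H3K27ac, H3K4me1 and PolII in both conditions, with a score of 46 in the control and 113 under Kap1 KD. Airn, the non-coding RNA that silences Igf2r, had H3K27ac from -671 to -184 bp relative to its start and no KAP1 or H3K9me3 there. A PolII peak of 401 bp over the Airn start, with a score of 30, was called under Kap1 KD alone. Its rank in that list was 9491 of 12862, so it was among the weaker calls. The KAP1 peak within 10 kb of Airn sat 27591 bp after the nearest start, over the promoter of Igf2r, the growth factor receptor expressed from the maternal copy, together with a 620 bp H3K9me3 region.

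Across all 49 annotated genes KAP1 and H3K9me3 were the lists whose shares lay above those of all and of protein-coding genes in every window, intervals included. The promoter was the 250 bp to each side of the 5′ end, the gene body the rest of the gene, and the wider window the gene with 10 kb to each side. KAP1 lay over the promoter of 16 of 49 genes (32.7%, 95% Wilson interval 21.2 to 46.6%) against 11.0% of all genes, over the body of 26 (16.1%) and within 10 kb of 31 (27.6%). H3K9me3 lay over 19 promoters (38.8%, 26.4 to 52.8%) against 5.60%, over 30 gene bodies (17.4%) and within 10 kb of 34 genes (34.2%). The percentages in brackets after these counts, here and below, are those of all 37310 genes. Among the 22380 protein-coding genes, 15.7% of promoters had KAP1 and 5.24% had H3K9me3. The listed genes are longer than others, with a median of 21008 bp against 5361.5 bp for all and 15420.5 bp for protein-coding genes, which bears on the gene body and the wider window but not on the promoter. Genes of a cluster can share a region, as 12 KAP1 peaks were shared by 2 genes, so the intervals, which cover counting error only, are too narrow.

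The active marks and PolIII lay nearer to the background, and PolII lay above it in some windows. H3K27ac lay over 6 promoters (14.6%), 15 bodies (27.9%) and within 10 kb of 19 genes (45.6%), and H3K4me1 over 6 (9.76%), 21 (34.5%) and 23 (52.6%). PolII of the control lay over 9 promoters (9.46%), 13 bodies (9.97%) and within 10 kb of 15 genes (17.9%). Under Kap1 KD the PolII counts were 9 (16.5%), 16 (18.4%) and 19 (30.6%). PolIII of the control had 1 (0.426%), 3 (2.44%) and 3 (4.86%), and PolIII under Kap1 KD had none in any window (0.188%, 0.429% and 1.22%), where 0 of 49 allows a share of up to 6.12%. Within 10 kb, both active marks had intervals below the share of protein-coding genes, with 26.4 to 52.8% against 56.8% for H3K27ac and 33.7 to 60.6% against 63.9% for H3K4me1. PolII of the control had intervals above the share of all genes in all 3 windows, and PolII under Kap1 KD over gene bodies (21.2 to 46.6%). Of the lists in this paragraph, it alone had, over gene bodies, a Wilson interval (16.2 to 40.3%) wholly above both the share of all genes and that of the protein-coding genes, 14.9%.

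**Figure D3:**
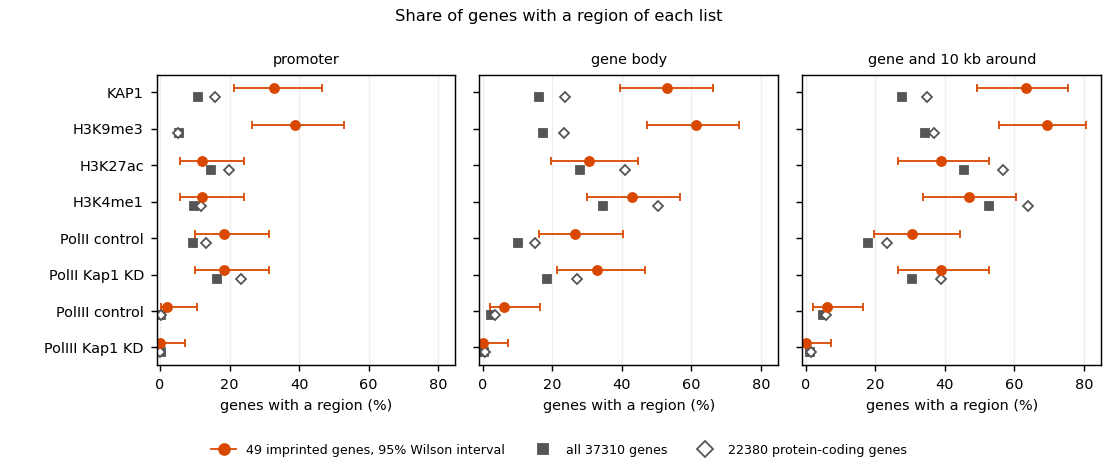
Share of genes with a region of each list (rows) over the promoter, the gene body and the gene with 10 kb to each side, for the 49 imprinted genes (circles, bars are 95% Wilson intervals over genes), all genes (squares) and protein-coding genes (diamonds). The circles of KAP1 and H3K9me3 lie above both backgrounds in all 3 windows.

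The promoters are grouped here by KAP1 and H3K9me3, with the parental copy known to be expressed given as a count. KAP1 and H3K9me3 together covered the promoter of 11 genes (22.4%, against 1.25% of all genes), Peg3, Peg10, Sgce (a sarcoglycan), Cdkn1c (a cell cycle inhibitor), Nnat, Plagl1, Gnas, Igf2r, Nap1l5, Zrsr1 and Mcts2. Of these, 8 are expressed from the paternal copy, 2 from the maternal copy (Cdkn1c and Igf2r) and 1 from both or either depending on the transcript. H3K9me3 without KAP1 covered 8 promoters (16.3%, against 4.35%), those of H19, Igf2, Kcnq1, Phlda2, Slc22a18, Ascl2, Grb10 and Kcnk9, of which 6 are maternal and 1 is paternal. KAP1 without H3K9me3 covered 5 (10.2%, against 9.79%), those of Copg2, Tssc4, Impact, Commd1 and Trappc9, of which 4 are maternal. Among all 49 genes 22 are paternal, 21 maternal and 5 mixed. Whether the groups differ in this was not tested, genes such as Peg10 and Sgce share a peak, and the internal starts of the paternal Snrpn and Mest and of Inpp5f are not counted. An active mark covered 10 promoters (20.4%, against 18.9%). No promoter had both H3K9me3 and an active mark, and 0 of 49 allows a share of up to 6.12%, where 0.624% of all genes had both. Nnat, Zrsr1 and Mcts2 were the 3 promoters with H3K9me3 and PolII (6.12%, against 0.332%).

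**Figure D4:**
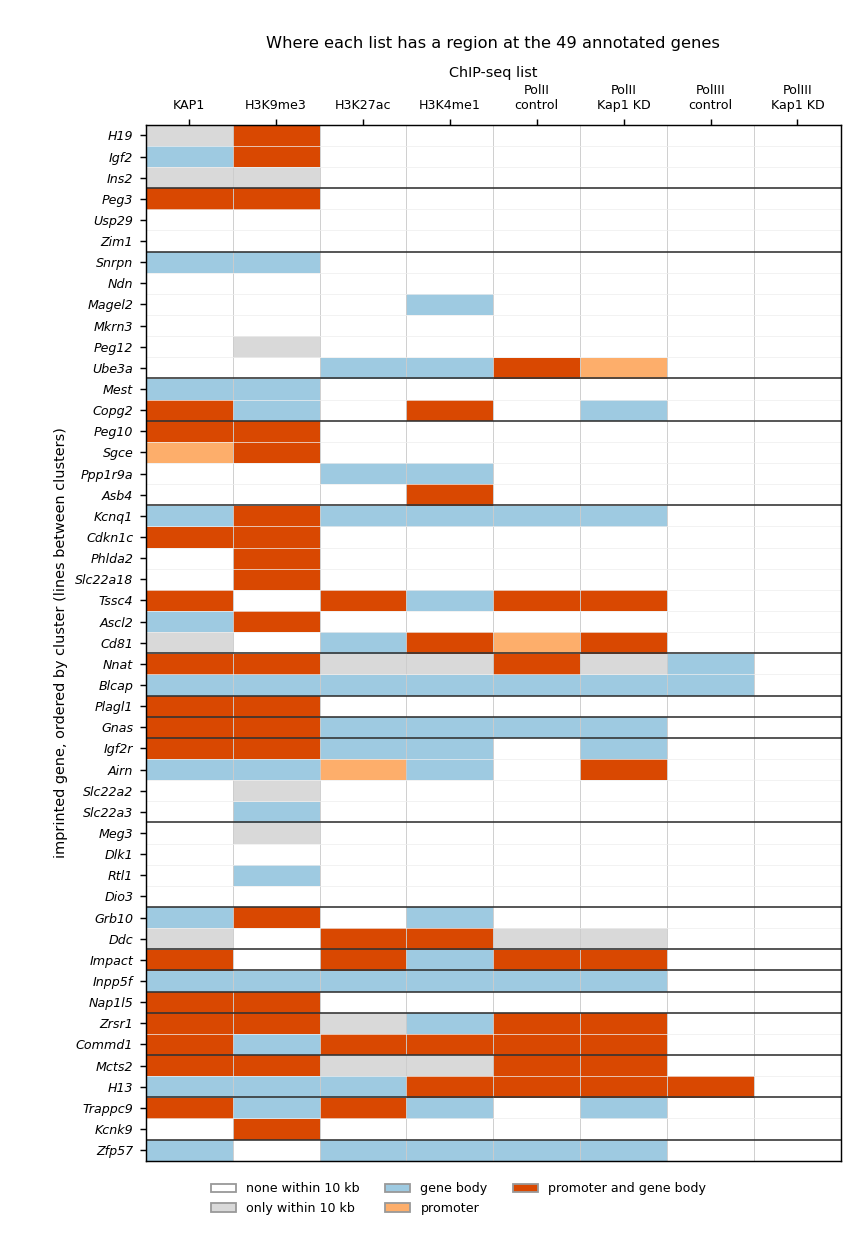
Where each of 8 lists (columns) has a region at the 49 annotated genes (rows, grouped by cluster), coloured by window. The KAP1 and H3K9me3 columns are filled together in most clusters, and 10 rows have no region over the gene in any list.

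Within 10 kb of the genes lay 41 KAP1 peaks, and 27 of them (65.9%, 95% Wilson interval 50.5 to 78.4%) overlapped H3K9me3, against 40.1% of all KAP1 peaks. They belonged to 16 of the 19 clusters. H3K9me3 came together with an active mark on 2 peaks (4.88%, against 4.68%), both at or beside Zrsr1 and both lost when peaks were cut to 500 bp around the centre, while 12 had an active mark alone and 2 none of these marks. At 3100 or above stood 10 of the 41 (24.4%), against 1.28% of the list. The median score was 1782.43 for the 27 peaks in H3K9me3 and 134.85 for all KAP1 peaks in H3K9me3. Outside H3K9me3 the 14 peaks had a median of 104.475, against 89.55 for all KAP1 peaks outside H3K9me3, and 10 of them (71.4%) overlapped control PolII, against 26.7% of those. They included peaks at the promoters of Tssc4 (150.56), Commd1 (106.75), Copg2 (91.39) and the long form of Trappc9 (98.42).

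**Figure D5:**
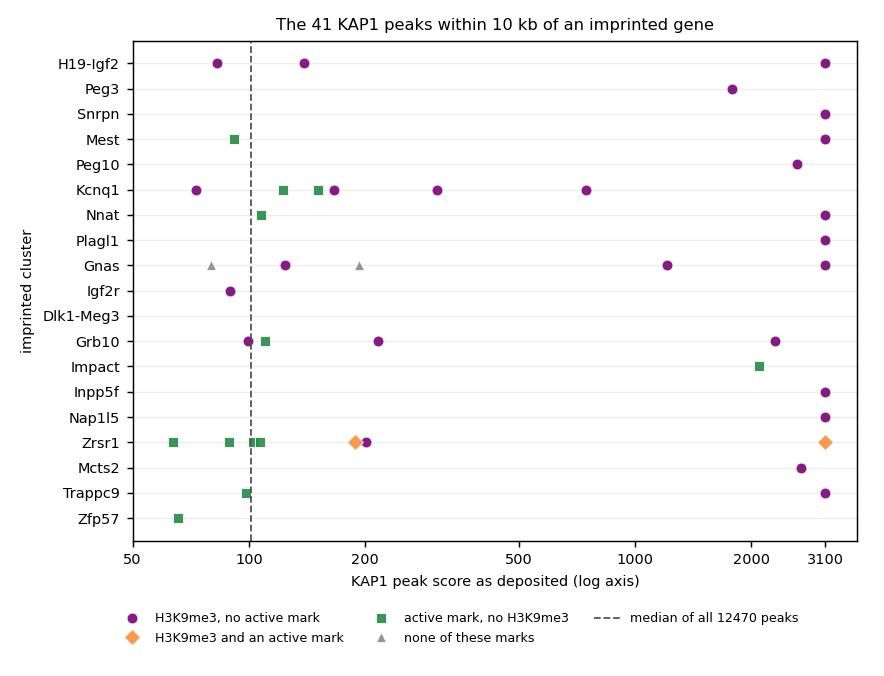
Deposited score (log axis) of the 41 KAP1 peaks within 10 kb of an imprinted gene, by cluster (rows), with the colour and shape giving the marks they overlap and the dashed line the median of all KAP1 peaks (101.53). The 10 peaks at 3100 all overlap H3K9me3, that of Zrsr1 together with an active mark, while Impact has the only peak over 1000 with an active mark alone.

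In the H19-Igf2 cluster KAP1 and H3K9me3 also marked Igf2, the fetal growth factor, which was free of active marks and of PolII. Igf2 had a KAP1 peak of 82.66 in its body, near an internal start, and one of 139.31 before its 5′ end, both in H3K9me3, and an H3K9me3 region of 2275 bp over the 5′ end. H19 itself had H3K9me3 over promoter and body and KAP1 only in the upstream region. Of the 144.0 kb from 10 kb before to 10 kb after the cluster, H3K9me3 covered 10.2% and KAP1 5.16%, where the genome had 1.56% and 0.612%.

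The Kcnq1 cluster had the longest total H3K9me3 of the 19 clusters, with 88 regions that cover 88.4 kb (15.9%) of its 556.0 kb, although Nnat (28.9%), Nap1l5 (22.3%) and Mcts2 (16.0%) had a larger share covered and Snrpn more regions (133). Kcnq1, a potassium channel gene of 320.0 kb, held 64 of these regions over the gene, with a median width of 591.5 bp against 324.0 bp in the whole list. Cdkn1c had a KAP1 peak of 748.25 that reached from 130 bp before to 2424 bp after its start, with H3K9me3. Ascl2 (a placental transcription factor) had one of 307.33 in H3K9me3, whereas Phlda2 and Slc22a18 had H3K9me3 over the promoter without KAP1. Tssc4 and Cd81 (a tetraspanin), which lie between Ascl2 and Kcnq1, had active marks and PolII and no H3K9me3. H3K9me3 and the active marks thus lay over different promoters of this cluster.

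Inside Kcnq1 lay one of the widest PolII peaks of either list. It spanned 17424 bp in the control (score 666, rank 59 of 5015, and 13th by width) and 20629 bp under Kap1 KD (score 1328, rank 57 of 12862, and 14th by width). Its near edge was 56.0 kb downstream of the Kcnq1ot1 start, and it overlapped 9 H3K9me3 regions, 1 H3K4me1 region and 1 KAP1 peak of 165.67. Further PolII peaks in Kcnq1 brought the gene with its flanks to 5 in the control and 7 under Kap1 KD, where the whole lists hold 5015 and 12862.

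Grb10 and its neighbour Ddc had different marks at their promoters. Grb10 had 3 KAP1 peaks, with scores of 2300.94 over its internal start, 215.38 just after its 5′ end and 99.5 near its 3′ end, all in H3K9me3, with 3 H3K4me1 regions in its body and no PolII. Ddc, the decarboxylase that makes dopamine and serotonin, had H3K27ac and H3K4me1 over the promoter and no H3K9me3 within 10 kb. The single KAP1 peak near Ddc, of 109.82, overlapped H3K27ac and PolII.

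Several control regions sit at an imprinted retrogene or short gene inside a larger host gene, and there the marks of both were seen. Mcts2 lies in H13 (a signal peptide peptidase gene), Nnat in Blcap, Zrsr1 in Commd1 (a copper metabolism gene), and the Inpp5f and Trappc9 regions in introns of their own gene. Each inner gene or start had KAP1 at 2691.57 or more with H3K9me3. Over the annotated promoter of the host, H13 had H3K4me1, Trappc9 had H3K27ac and a KAP1 peak of 98.42, and Commd1 had both marks and a KAP1 peak of 106.75, whereas Inpp5f had neither mark. At Blcap the marks lay not at the annotated 5′ end but at internal starts 4913 to 4943 bp after it, under a KAP1 peak of 107.29 with both active marks and PolII.

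Some genes had no region at all, including members of clusters with marked control regions. No list had a region over 10 of the 49 genes (20.4%, against 49.7% of all genes), namely Ins2 (insulin), Usp29, Zim1, Ndn (necdin), Mkrn3, Peg12, Slc22a2, Meg3, Dlk1 and Dio3 (a thyroid hormone deiodinase), and 6 of them, Usp29, Zim1, Ndn, Mkrn3, Dlk1 and Dio3, had none within 10 kb either (12.2%, against 27.9%). In the Snrpn cluster, which spans 3150.0 kb, the KAP1 peak at Snrpn was the only one within 10 kb of a listed gene, and Ube3a (a ubiquitin ligase) was the only gene with PolII over its promoter. In GENCODE M1 the start that the RefSeq sequence of Usp29 gives, beside Peg3, is at -230577 bp relative to the annotated 5′ end, so its empty windows describe the annotated position. KAP1 was absent within 10 kb of 18 genes in all, among which Zim1 was 32.2 kb, Phlda2 40.4 kb and Slc22a18 12.5 kb from the nearest peak.

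Just as 86.1% of all control PolII peaks overlapped a Kap1 KD peak, PolII was called at largely the same promoters of these genes in both conditions. It covered 9 promoters in each condition, of which 8 were the same, those of Ube3a, Tssc4, Cd81, Impact, Zrsr1, Commd1, Mcts2 and H13, with Nnat in the control alone and Airn under Kap1 KD alone. How many promoters of all genes had PolII in both conditions was not counted. The lists differ in length, with 5015 and 12862 peaks, and with as many Kap1 KD peaks as control peaks the Kap1 KD count was 5. At Impact the score was 56 in the control and 109 under Kap1 KD, at Tssc4 79 and 174, at Cd81 17 and 33, at Zrsr1 43 and 81 and at H13 21 and 66. At Commd1 it was 22 and 31, at Ube3a 38 and 36, and the Mcts2 peak of 165 in the control was met by 2 peaks of 68 and 168. Scores under Kap1 KD were the higher ones throughout the list, with 95.0% of overlapping pairs of all peaks and a median ratio of 2.13, so the 18 of 20 pairs at these genes (90.0%, median ratio 1.94) were near the background.

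Of the 24 control PolII peaks within 10 kb of these genes, 20 (83.3%) overlapped a Kap1 KD peak, as did 86.1% of all control peaks. Of the 30 Kap1 KD peaks, 22 (73.3%) overlapped a control peak, against 33.3% of all. Peaks carry running numbers with gaps, for which no source used here gives the reason, and the gaps bear on 1 of the 4 control peaks and on 1 of the 8 Kap1 KD peaks without a partner. At Nnat the control peak of 29 had no partner within 1 kb and no missing number there, while the peak at the internal Blcap starts, from 5878 bp after the Nnat start, scored 93 in the control and 233 in Kap1 KD. A Kap1 KD peak of 132, 2835 bp wide, lay 5657 bp from the strong KAP1 peak of the Trappc9 intron, where the nearest control peak was 239971 bp away. This Kap1 KD peak overlapped H3K27ac and H3K4me1 regions, which the KAP1 peak did not. At Inpp5f a control peak of 84 and 3012 bp, starting 1858 bp from the KAP1 peak, stood against 2 Kap1 KD peaks of 35 and 32. These are single calls from 1 library each and the differences were not tested.

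PolIII, which makes short non-coding RNAs, was called at only 3 places near these genes, all in the control on chromosome 2. A peak of 2057 bp with a score of 40 covered the H13 promoter, and 2 with a score of 50 lay in and near Nnat and Blcap, of which one, 2803 bp wide, overlapped the strong KAP1 peak of Nnat. None had a partner under Kap1 KD, where only 187 of all 2772 control PolIII peaks (6.75%) had one, so this was near the background. All 3 fell where numbers are missing from the Kap1 KD list, so calls removed before deposit and calls never made cannot be told apart.

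Other genes, from 1 list of neighbours of imprinted genes and of further imprinted genes, some outside the 19 clusters, and from 1 list of factors of imprint maintenance, were followed in the same way. Of the 24 annotated genes of the first list, 5 had KAP1 over the promoter, Nespas and Tfpi2 with H3K9me3, and Nap1l4, Dhcr7 and Chrac1 without. These shares stand against 11.0% of all genes for KAP1 and 5.60% for H3K9me3, which covered those first 2 promoters. PolII covered 4 in the control and 9 under Kap1 KD, against 9.46% and 16.5% of all genes. Of 16 maintenance factors, KAP1 covered the promoters of Uhrf1 (which reads half-methylated DNA), Cbx3 and Cbx5 (HP1 proteins), all 3 with H3K27ac and PolII in both conditions and with no H3K9me3. PolII covered 6 of the 16 in the control and 10 under Kap1 KD, against the same 9.46% and 16.5%, with Trim28 in both. Zfp57 itself had H3K27ac, H3K4me1, PolII in both conditions and a KAP1 peak of 65.71 in its body, and no H3K9me3.

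As a check of the cell type, H3K27ac lay within 1 kb of the start of 6 of 9 hepatic marker genes (albumin, alpha-fetoprotein and others, chosen after the lists were known). Control PolII lay there at 0 of the 9, which allows a share of up to 33.3%, and Kap1 KD PolII at 1. Absence of a PolII call in these lists is therefore weak evidence about any gene above. Read depth is not held in the lists, and fewer cells with a mark and less of it per cell cannot be told apart.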

How the data were processed

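Positions of enriched regions were analysed from 8 ChIP-seq libraries of Hepa 1-6 cells, and 5 sequenced inputs were not analysed here. Per the methods of the study and the submitters' processing notes, the authors mapped reads to mm9 with Bowtie (Bowtie1 for the files used in peak calling), took MACS, with total input as background, for KAP1 and PolII, and ChIP-Part for the histone marks. The caller for PolIII, release numbers and options were not given in the sources used here. The deposited KAP1, PolII and PolIII lists hold positions and a score for each peak, and the deposited histone lists hold positions alone (for these, width in base pairs took the place of the score). No read counts are held, so depth is unknown, and nothing was scaled.

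Positions were checked against NCBIM37 (mm9) chromosome lengths and compared with GENCODE M1 in Python 3.11.15 (pandas 2.3.3, numpy 2.4.6, scipy 1.17.1, pysam 0.24.0, matplotlib 3.10.9). Regions overlapped when they shared at least 1 bp. RefSeq (GRCm38.p6 table) promoter sequences of 40 genes, 59 in all, each matched mm9 once and gave further starts. Control regions, expressed copies and roles come from textbook knowledge. For each control region the highest-scoring KAP1 peak of the gene with 10 kb to each side, or of the Dlk1-Meg3 interval, was taken, which was chosen after seeing the data. Overlap and motif counting were tested on simulated data. The members and lists were chosen with earlier results of these data known. Named were genes with KAP1 in H3K9me3 within 10 kb, genes with PolII over the promoter, genes with no region, and genes of the other lists with KAP1 over the promoter. Further peaks that are named, and the Dlk1-Meg3 and H19 sequences, were chosen after their values were seen. With 1 library per group no test was made, and shares of genes and peaks carry 95% Wilson intervals. A count of 0 was limited by 3 counts. Alternatives were other promoter widths, starts, overlaps, list lengths, flanks and score limits.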

Additional observations from a re-analysis of the deposited data

Results flagged for a closer look

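PolII and PolIII peaks near the imprinted genes moved in opposite directions between the control and Kap1 KD, which is what drew attention to them. Within 10 kb of the genes the number of PolII peaks was higher by 6 under Kap1 KD (30 against 24), and that of PolIII peaks differed by -3 (none against 3). The whole lists moved the same way, from 5015 to 12862 PolII peaks and from 2772 to 431 PolIII peaks, and the difference was not tested, as each condition had 1 library.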

How the results depend on the processing

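Of 52 recomputed counts, 39 stayed within 1.5 times of the reported one, and the promoter counts of KAP1 and H3K9me3 did so under every alternative except one for KAP1. An alternative added after seeing the data took any annotated or RefSeq-matched start and with it Kcnq1ot1 as a further gene, 50 in all. It gave 25 KAP1 promoters in place of 16, 10 for H3K27ac in place of 6 and 2 for PolIII of the control in place of 1. Kcnq1ot1 is 1 of the 25 and 1 of the 10, and annotated starts of the 49 genes alone gave 23 and 9, within 1.5 times. With an overlap of at least 100 bp, H3K27ac promoters fell to 2 and H3K4me1 promoters to 3, while promoters of 1 kb gave 10 for H3K4me1. Keeping the upper 50% of each list by score or width gave 3 promoters for H3K27ac, 4 for PolII of the control and 5 for PolII under Kap1 KD, and as many Kap1 KD peaks as control peaks also gave 5. PolIII of the control had 2 promoters with any annotated transcript start and 0 without chromosomes 1 to 4. Cutting KAP1 peaks to 500 bp left 0 with H3K9me3 and an active mark. A score limit of 500 or 2000 in place of 1000 gave 16 or 14 control regions. With protein-coding genes alone the promoter background moved from 11.0 to 15.7% for KAP1 and from 5.60 to 5.24% for H3K9me3. The causes were not tested. No paired analysis was possible because each group held 1 library, and for the same reason no library could be left out. Depth is unknown, so the absence of a region is not evidence of absence of the mark.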
